A study of Mus musculus with 6 samples.

Results

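The genes described here are 10 genes by which cortical interneurons and their neuropeptides are commonly recognised: *Gad1*, *Gad2*, *Sst*, *Pvalb*, *Vip*, *Npy*, *Cck*, *Tac1*, *Crh* and *Calb2*. They were taken by gene name from a table of 51826 genes, each name matched 1 gene, and all 10 were among the 18345 genes with enough counts to be tested. The libraries came from the cortex of male BALB/c mice aged 6 to 8 weeks, taken 3 days after the whole brain had received 10 Gy of X-rays. The 3 *Lgmn*+/+-IR mice were wild type. The 3 *Lgmn*-/--IR mice (AEP knockout) lacked *Lgmn*, the gene of asparagine endopeptidase (AEP), and were bred as *Lgmn* flox/flox: *Cre*+ mice. The promoter that drives Cre and the strain of the targeted embryonic stem cells are not given in the sources used here. All 6 mice were irradiated and mice without irradiation were not analysed here, so each difference below is between genotypes after irradiation.

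GABAergic interneurons are the inhibitory cells of the cortex. They make GABA from glutamate with the decarboxylases encoded by *Gad1* and *Gad2*, and their main classes are told apart by parvalbumin (*Pvalb*), somatostatin (*Sst*) or vasoactive intestinal peptide (*Vip*). Most of them also release neuropeptides from dense core vesicles. Several of these transcripts are not confined to cortical interneurons, since *Cck* is also made by cortical pyramidal cells, *Tac1* and both *Gad* genes by striatal projection neurons, and *Calb2* by thalamic and olfactory bulb neurons. In tissue RNA, fewer cells of a type and less RNA per cell cannot be told apart.

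The total count per library was 41874462 to 46829441. *Lgmn* was less abundant in each *Lgmn*-/--IR library (70.4 to 93.6 CPM, counts scaled to library size with TMM factors) than in each *Lgmn*+/+-IR library (127 to 130 CPM), although counts over the whole gene do not show which exon was lost. Cortical glutamatergic markers were high in every library, with *Slc17a7*, the vesicular glutamate transporter of cortical pyramidal cells, at 1014 to 1410 CPM. The libraries differed in markers of neighbouring regions. The summed level of 7 striatal markers (*Drd1*, *Drd2*, *Adora2a*, *Ppp1r1b*, *Rgs9*, *Pde10a* and *Gpr6*) was 377, 749 and 1528 CPM in *Lgmn*+/+-IR replicates 1, 2 and 3 and 1315, 253 and 299 CPM in *Lgmn*-/--IR replicates 1, 2 and 3. *Lgmn*+/+-IR replicates 2 and 3 and *Lgmn*-/--IR replicate 1 were thus the high libraries, and the other 3 were the low ones. *Lgmn*-/--IR replicate 1 also had a summed level of 119.4 CPM for 5 olfactory bulb markers, against 7.10 to 26.7 CPM in the other 5 libraries. None of the 7 striatal and 4 tested olfactory bulb markers differed between genotypes by edgeR or DESeq2 (which gave no adjusted p for 2 of the latter), and 0 had an unadjusted p under 0.05. With the mean striatal marker level as a covariate, edgeR called 2 of the 4 olfactory bulb markers higher in *Lgmn*-/--IR mice, *Cdhr1* (log2 fold change 2.37, adjusted p = 0.00151) and *Eomes* (4.25, adjusted p = 0.0468). These 2 genes were at 54.7 and 10.9 CPM in *Lgmn*-/--IR replicate 1, against 6.37 and 0 CPM on average in the other 2 knockout libraries. Of 5 hippocampal markers 1, *Lct*, was lower (log2 fold change -1.09, adjusted p = 0.0373), a call lost with any one library left out (adjusted p 0.0606 to 0.137). In that list 3 genes had an unadjusted p under 0.05, 3 were lower without overlap, and 3 (*Dsp*, *Lct* and *Spink8*) passed by DESeq2. Of 5 thalamic and 6 hypothalamic markers tested none passed, with 0 and 1 at an unadjusted p under 0.05 and 0 by DESeq2.

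Per transcript length, the members spanned a wide range of levels. In mean FPKM over the 6 libraries (fragments normalized for transcript length and library size, ± SD, n = 6) the order was *Sst* (489 ± 51.2), *Cck* (346 ± 80.6), *Npy* (208 ± 52.7), *Gad1* (129 ± 33.4), *Pvalb* (56.9 ± 12.3), *Tac1* (37.1 ± 25.8), *Gad2* (34.1 ± 11.02), *Vip* (25.3 ± 7.10), *Calb2* (21.1 ± 12.4) and *Crh* (4.98 ± 1.26). *Sst* exceeded *Cck*, *Gad1* exceeded *Pvalb* and *Calb2* exceeded *Crh* without any overlap of their FPKM ranges. The other neighbours in this order overlapped, and *Tac1* was above *Gad2* in 3 of the 6 libraries, as was *Gad2* above *Vip*. *Gad1* FPKM was 3.25 to 4.41 times *Gad2* FPKM in the 6 libraries.

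**Figure D1:**
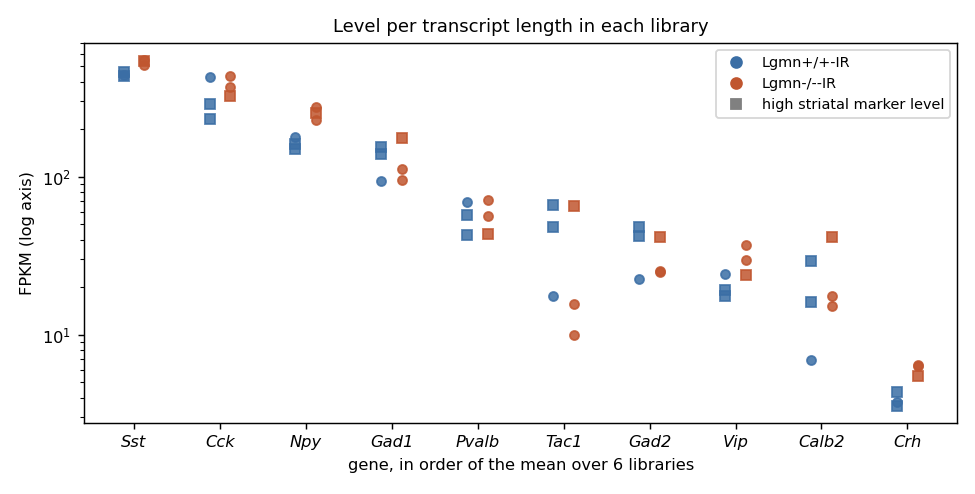
FPKM of the 10 genes on a log axis, in order of their mean over 6 libraries. Each symbol is 1 library, coloured by genotype, and squares mark the 3 libraries with high striatal marker levels. *Sst* lies between 438 and 549 FPKM and *Crh* between 3.57 and 6.40, and the *Tac1* symbols spread from 10.0 to 66.2.

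The neuropeptide genes *Npy* and *Crh* were higher in irradiated *Lgmn*-/- cortex, both about 1.61-fold. *Vip* and *Sst* also lay above the wild-type range in every *Lgmn*-/--IR library, but did not pass the adjusted threshold. The remaining 6 genes overlapped between genotypes. Differences were tested with edgeR's quasi-likelihood test across all 18345 genes with Benjamini-Hochberg adjustment, and the study's definition of a differentially expressed gene (DEG) also asks for an absolute log2 fold change over 1. At an adjusted p under 0.05, 2 of the 10 members rose and 0 fell without *Lgmn*, and 3.33% of all genes tested passed (1.65% higher and 1.68% lower). None of the members was a DEG by edgeR or by DESeq2, against 2.06% of all genes tested by edgeR (0.959% higher and 1.1% lower). DESeq2 called more of the same 18345 genes, 1423 against 611 by edgeR, with 593 against 377 DEGs. It called 3 members (*Crh*, *Npy* and *Vip*), and its counts below stand beside that larger background. By edgeR's unadjusted p 4 members were under 0.05, against 18.6% of all genes. In 4 members all knockout values lay above all wild-type values, as in 12.4% of all genes, and in 0 members below, as in 13.3% of all genes. The median log2 fold change of the members was 0.31, beside -0.01 over all genes tested.

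*Npy* encodes neuropeptide Y, an inhibitory peptide found in many somatostatin and neurogliaform cells (chromosome 6 of GRCm38, 49822710 to 49829507). Its level was 113, 99.98 and 94.9 CPM in *Lgmn*+/+-IR replicates 1, 2 and 3 and 164, 141 and 190 CPM in *Lgmn*-/--IR replicates 1, 2 and 3. The lowest knockout library was therefore above the highest wild-type library, and the knockout libraries were the more spread. With means of 103 ± 9.29 and 165 ± 24.5 CPM (SD, n = 3 each), *Npy* rose by a log2 fold change of 0.68 (SE 0.13), and the adjusted p was 0.0395 (edgeR, quasi-likelihood). The call depended on the libraries: without *Lgmn*-/--IR replicate 2 the adjusted p was 0.0340, and without any one of the other 5 libraries it was 0.0738 to 0.167, with the log2 fold change between 0.57 and 0.79. Within the libraries of low striatal markers (1 *Lgmn*+/+-IR and 2 *Lgmn*-/--IR) the log2 ratio of mean CPM was 0.55, and within those of high markers (2 and 1) it was 0.75. With the mean striatal marker level as a covariate the log2 fold change was 0.65 and the adjusted p 0.0672.

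*Crh* encodes corticotropin-releasing hormone, which in the cortex is made by a subset of mostly *Vip* interneurons (chromosome 3, 19693401 to 19695396). It was the lowest of the 10 genes, its counts being 238, 272 and 243 for the wild-type replicates 1, 2 and 3 and 369, 432 and 446 for the knockout replicates. Each knockout count exceeded each wild-type count. In CPM, *Crh* rose from 5.76 ± 0.528 to 9.26 ± 0.929 (SD, n = 3 each), by a log2 fold change of 0.69 (SE 0.14, adjusted p = 0.0497, edgeR's quasi-likelihood test). This p lay next to the threshold, and leaving out any one library raised it to 0.0747 to 0.166. The log2 ratio was 0.80 within the libraries of low striatal markers and 0.51 within those of high markers. With these markers as a covariate the log2 fold change was 0.63 (adjusted p = 0.0897).

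*Vip* encodes vasoactive intestinal peptide and marks interneurons that mainly inhibit other interneurons (chromosome 10, 5639218 to 5647617). It stood at 41.5, 32.6 and 30.3 CPM in *Lgmn*+/+-IR replicates 1 to 3 and at 42.1, 61.9 and 55.3 CPM in *Lgmn*-/--IR replicates 1 to 3. The groups did not overlap, but *Lgmn*-/--IR replicate 1 was barely above *Lgmn*+/+-IR replicate 1. Between genotypes *Vip* had a log2 fold change of 0.61 (SE 0.18, adjusted p = 0.134), which missed the threshold, and DESeq2 gave an adjusted p of 0.0316. Within the low and high striatal marker libraries the log2 ratio was 0.50 and 0.42.

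*Sst* encodes somatostatin, the peptide of dendrite-targeting interneurons (chromosome 16, 23889573 to 23890958). It was the steadiest of the 10 genes within genotypes, at 294, 302 and 296 CPM in *Lgmn*+/+-IR and 373, 335 and 399 CPM in *Lgmn*-/--IR replicates 1, 2 and 3. All knockout libraries were higher, by a mean of 1.24-fold. The log2 fold change of 0.31 (SE 0.09, 95% interval 0.10 to 0.52) had an unadjusted p of 0.0102 and an adjusted p of 0.128. It was 0.32 within both the low and the high striatal marker libraries.

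**Figure D2:**
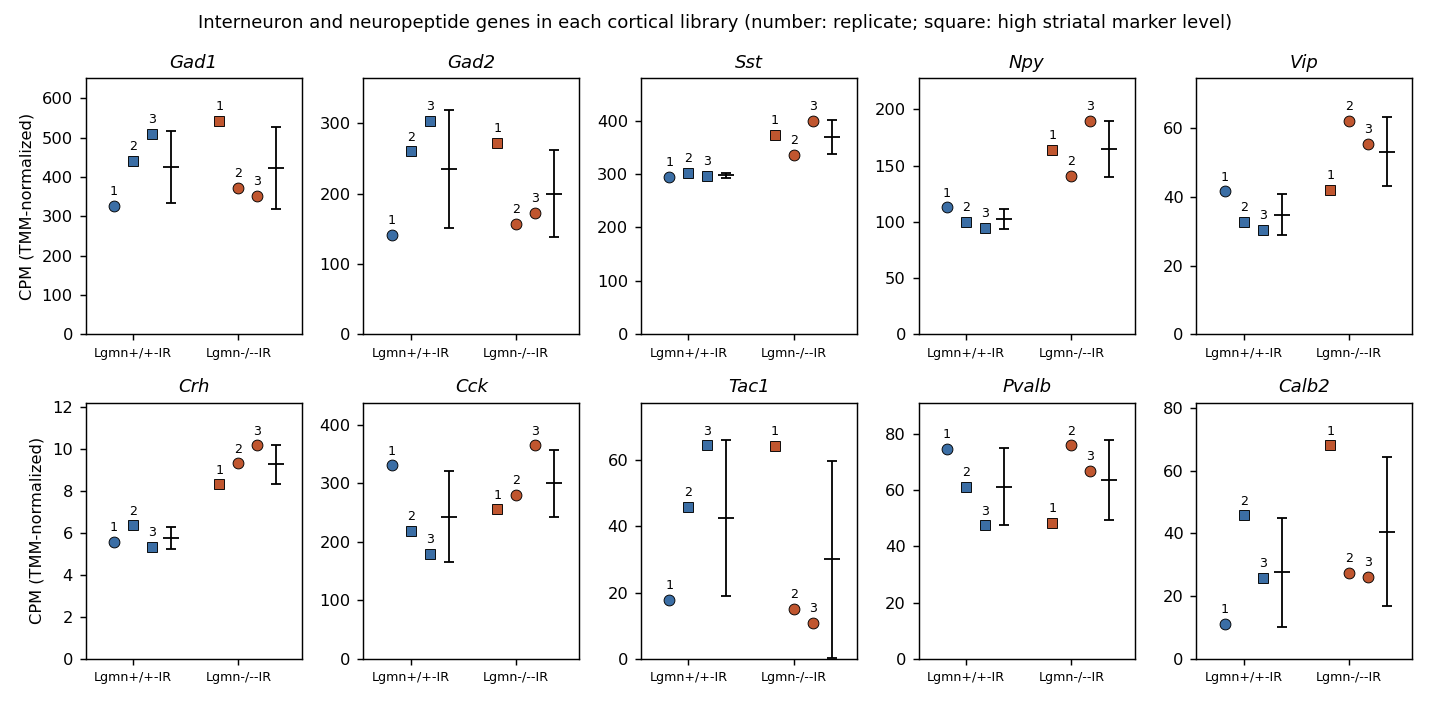
TMM-normalized CPM of each gene in each library, with axes from 0. Numbers are replicates, squares are the 3 libraries with high striatal marker levels, and the bars beside the points are the mean ± SD of 3 libraries. The *Npy*, *Crh*, *Sst* and *Vip* points of *Lgmn*-/--IR lie above all *Lgmn*+/+-IR points, while those of *Gad1*, *Gad2* and *Tac1* are highest in the squares of both genotypes.

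Several peptide genes are classic targets of the cAMP response element binding protein CREB, whose element is TGACGTCA or the shorter TGACG. RefSeq promoters (GRCm38.p6, 250 bases before the transcript start) were matched for 8 of the 10 members: *Gad1*, *Gad2*, *Sst*, *Pvalb*, *Vip*, *Npy*, *Cck* and *Tac1*. *Crh* and *Calb2* had no entry. The short form TGACG, searched on both strands (CGTCA on the printed strand is its reverse), was found before *Sst*, *Vip*, *Cck*, *Tac1* and *Gad2*, and in 17.7% of all 32817 promoters of that length. The whole TGACGTCA, which contains the short form on each strand, was found only before *Sst* among the 8, and in 1.55% of all promoters. Letters shared at the matches are those searched for. The stretches of 30 bases around the match nearest to the start are shown, with the match in capitals.
Sst, chr16:23890874-23890903, minus strand: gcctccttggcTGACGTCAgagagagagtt
Vip, chr10:5639127-5639156, plus strand: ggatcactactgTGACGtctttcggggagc
Cck, chr9:121495724-121495753, minus strand: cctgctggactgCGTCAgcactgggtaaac
Tac1, chr6:7555006-7555035, plus strand: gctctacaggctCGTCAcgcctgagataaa
Gad2, chr2:22622282-22622311, plus strand: ccatttcccttcCGTCActctctcatctcc
The matches began 48, 79, 47, 43 and 33 bases before the start of *Sst*, *Vip*, *Cck*, *Tac1* and *Gad2*, and *Tac1* had another at 197 bases. The promoter of *Npy*, the member with the smallest p, held neither, and its last 120 bases before the start are printed for comparison, without capitals.
Npy, chr6:49822590-49822709, plus strand: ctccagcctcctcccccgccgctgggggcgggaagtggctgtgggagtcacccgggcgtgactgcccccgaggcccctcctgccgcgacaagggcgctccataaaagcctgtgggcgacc
Of the genes with a match, *Sst* and *Vip* were above the wild-type range in every knockout library, whereas *Cck*, *Tac1* and *Gad2* overlapped between genotypes. These matches describe letters in a window and not bound sites. The starts used here are those of RefSeq, while the gene positions printed in the text are those of GENCODE. By the GENCODE positions the stretches of *Sst*, *Tac1* and *Gad2* lie inside the gene, and those of *Vip* and *Cck* before it.

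*Cck* encodes cholecystokinin, made by a class of basket cells and by pyramidal cells (chromosome 9, 121489824 to 121495694). Its level was 331, 219 and 180 CPM in *Lgmn*+/+-IR and 255, 280 and 365 CPM in *Lgmn*-/--IR replicates 1, 2 and 3. The groups overlapped, because *Lgmn*+/+-IR replicate 1 was above 2 of the knockout libraries. For *Cck* the fitted log2 fold change was 0.30 (SE 0.24, 95% interval -0.26 to 0.86, adjusted p = 0.542). It was 0.60 without *Lgmn*+/+-IR replicate 1 and 0.13 and 0.14 without *Lgmn*+/+-IR replicate 3 or *Lgmn*-/--IR replicate 3. With the striatal covariate *Cck* had a log2 fold change of 0.15, and the log2 ratio was -0.04 within the libraries of low striatal markers and 0.36 within those of high markers.

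*Tac1*, the precursor gene of substance P and neurokinin A, varied most of all members (chromosome 6, 7554879 to 7565834). Its counts were 754, 1959 and 2927 for the wild-type replicates 1, 2 and 3 and 2856, 694 and 470 for the knockout replicates. Within one genotype the highest CPM was thus 3.64 times (*Lgmn*+/+-IR) and 6.003 times (*Lgmn*-/--IR) the lowest. The standard deviation of its log2 CPM within genotypes was 1.17, which was above that of 99.4% of all genes tested (median 0.18). Its 3 highest libraries were the 3 with high striatal markers, with a mean of 58.1 CPM against 14.4 CPM in the other 3. The log2 fold change between genotypes was -0.51 (SE 0.73, 95% interval -2.22 to 1.21, adjusted p = 0.755), and with the striatal covariate it was -0.05. It was -1.73 without *Lgmn*-/--IR replicate 1 and -0.87 without *Lgmn*+/+-IR replicate 1, against -0.08, -0.18 and -0.10 without *Lgmn*+/+-IR replicate 3, *Lgmn*-/--IR replicate 2 or *Lgmn*-/--IR replicate 3. *Penk*, the enkephalin precursor gene of striatal neurons, was chosen after its values were seen and had the same 3 highest libraries, at 82.5, 331 and 457 CPM in *Lgmn*+/+-IR and 505, 107 and 96.5 CPM in *Lgmn*-/--IR.

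*Gad1* and *Gad2* encode the cytosolic GAD67 and the synaptic GAD65 (chromosome 2, 70553072 to 70602014 and 22622205 to 22693874). *Gad1* was at 326, 440 and 509 CPM in *Lgmn*+/+-IR and at 542, 372 and 352 CPM in *Lgmn*-/--IR replicates 1, 2 and 3. *Gad2* was at 141, 260 and 303 CPM and at 272, 157 and 172 CPM in the same order. For both genes the 3 libraries with high striatal markers were above the 3 others, whichever the genotype, with mean ratios of 1.42 for *Gad1* and 1.78 for *Gad2*. The log2 fold change between genotypes was -0.01 for *Gad1* (SE 0.22, 95% interval -0.52 to 0.49, adjusted p = 0.983). That of *Gad2* was -0.23 (SE 0.31, 95% interval -0.97 to 0.51, adjusted p = 0.741). With the striatal marker level as a covariate both signs turned, to 0.19 (adjusted p = 0.275) and 0.09 (adjusted p = 0.756). The antisense gene *Gad1os* overlaps *Gad1* and had at most 10 counts in a library.

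The calcium-binding proteins parvalbumin and calretinin mark fast-spiking basket cells and a part of the *Vip* cells. *Pvalb* (chromosome 15, 78191114 to 78206400) was at 74.7, 61.2 and 47.4 CPM in *Lgmn*+/+-IR and 48.2, 75.8 and 66.6 CPM in *Lgmn*-/--IR replicates 1, 2 and 3. These ranges nearly coincided, and the log2 fold change was 0.06 (SE 0.21, 95% interval -0.45 to 0.56, adjusted p = 0.912). It turned to -0.14 with the striatal covariate and to -0.10 and -0.09 without *Lgmn*+/+-IR replicate 3 or *Lgmn*-/--IR replicate 2. *Calb2*, the calretinin gene (chromosome 8, 110137502 to 110168210), had 11.02, 45.7 and 25.9 CPM in *Lgmn*+/+-IR and 68.0, 27.4 and 26.1 CPM in *Lgmn*-/--IR. Its highest library was *Lgmn*-/--IR replicate 1, the one with the high olfactory bulb markers. Its log2 fold change was 0.56 (SE 0.56, adjusted p = 0.641) over all libraries, -0.04 without that library and 1.13 without *Lgmn*+/+-IR replicate 2. With the striatal covariate edgeR gave *Calb2* a log2 fold change of 0.95 (adjusted p = 0.269). Its log2 ratio was 1.28 within the libraries of low striatal markers and 0.93 within those of high markers.

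Set against the striatal marker level, 3 members (*Gad1*, *Gad2* and *Tac1*) were higher in each of the 3 high libraries than in each of the 3 low ones, as were 7.6% of all genes tested. A further 2 (*Cck* and *Pvalb*) were lower in each high library, as were 5.87% of all genes. *Calb2* did not separate in this way. *Npy*, *Crh*, *Sst* and *Vip* could not, because each knockout value exceeded each wild-type value and both sets of libraries held both genotypes. For them this comparison therefore says nothing about the striatal marker level. The high and low libraries were set apart by the markers and not by the study, and the part of dissection in these values was not tested.

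**Figure D3:**
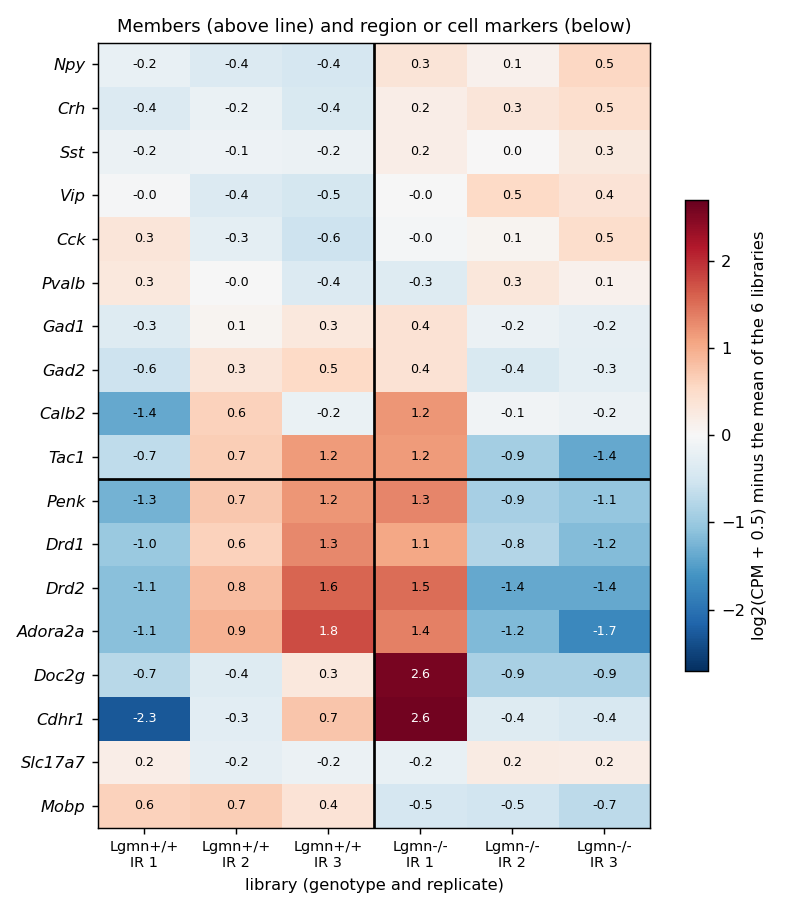
Log2(CPM + 0.5) of each gene minus its mean over the 6 libraries, 1 column per library, with the 10 members above the horizontal line and markers below it: *Penk*, *Drd1*, *Drd2* and *Adora2a* for the striatum, *Doc2g* and *Cdhr1* for the olfactory bulb, *Slc17a7* for pyramidal cells, *Mobp* for oligodendrocytes. Red is above and blue below the mean. *Tac1* and the striatal genes are red in *Lgmn*+/+-IR replicates 2 and 3 and *Lgmn*-/--IR replicate 1, while *Npy*, *Crh* and *Sst* are blue in all *Lgmn*+/+-IR libraries and at or above the mean in all *Lgmn*-/--IR libraries.

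**Figure D4:**
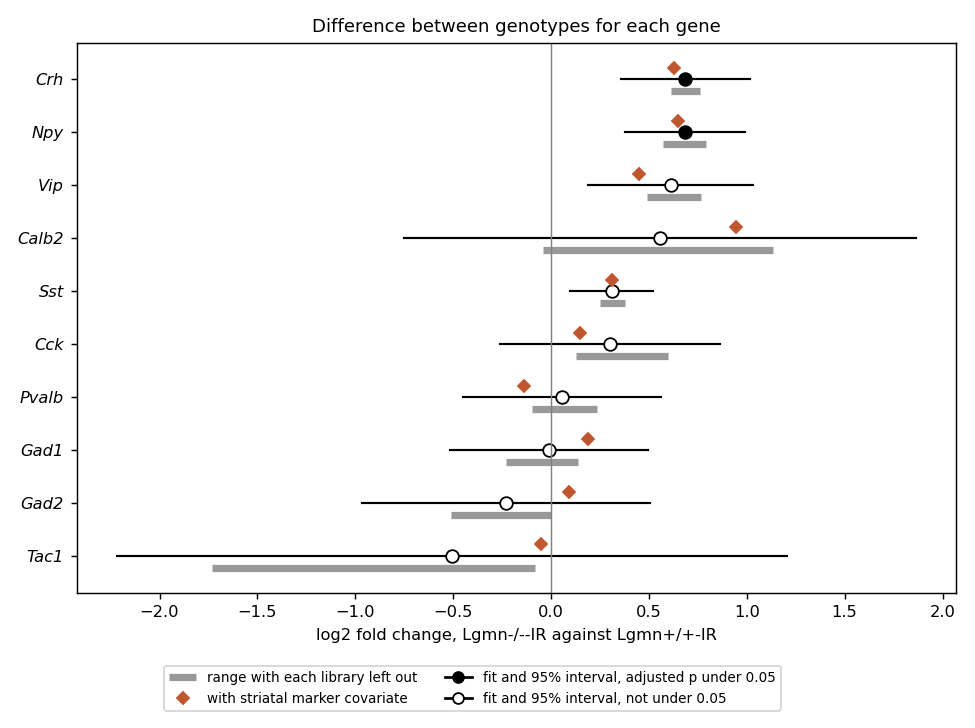
Log2 fold change of each gene, *Lgmn*-/--IR against *Lgmn*+/+-IR, with its 95% interval (black line, filled where the adjusted p was under 0.05), the range with each library left out (grey) and the value with the striatal marker covariate (diamond). *Npy* (0.68) and *Crh* (0.69) are filled, the intervals of *Vip* and *Sst* also lie above 0, and the diamonds of *Gad1*, *Gad2* and *Pvalb* are on the other side of 0 from their circles.

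Some markers of other cell types also differed between the genotypes in these libraries. The summed level of 5 oligodendrocyte markers was 2038 to 2490 CPM in *Lgmn*+/+-IR and 1391 to 1413 CPM in *Lgmn*-/--IR, and 4 of the 5 (*Mog*, *Mag*, *Mobp* and *Cnp*) were lower at an adjusted p under 0.05. *Mobp*, a myelin gene, had the smallest p of them (log2 fold change -1.12, adjusted p = 0.00330). With each library left out in turn *Mobp* passed in 6 of 6 cases, *Mog* in 2, *Mag* in 1 and *Cnp* in 1. All 5 red blood cell markers were higher, with sums of 7.59 to 15.8 CPM in *Lgmn*+/+-IR and 2273, 1728 and 234 CPM in *Lgmn*-/--IR replicates 1, 2 and 3. Of the 4 members above the wild-type range, *Npy*, *Crh* and *Sst* were highest in *Lgmn*-/--IR replicate 3, the knockout library with the lowest red blood cell level, and *Vip* was highest in *Lgmn*-/--IR replicate 2. *Lgmn*-/--IR replicate 3 also had the highest summed level of general neuron markers (8687 CPM, against 6877 to 7758 CPM in the other libraries). The same held for glutamatergic markers (2203 CPM, against 1476 to 2003 CPM). Of 6 astrocyte markers, *Aqp4*, the water channel of astrocyte end feet, was higher (log2 fold change 0.55, adjusted p = 0.0374), and passed in 1 of the 6 omissions of a library (without *Lgmn*-/--IR replicate 2). Of the astrocyte markers 3 had an unadjusted p under 0.05, 4 were higher without overlap, and 2 (*Aqp4* and *Gja1*) passed by DESeq2. Of 6 microglia, 5 endothelial and 6 choroid plexus markers none passed by edgeR, with 2, 1 and 1 at an unadjusted p under 0.05 and 1, 1 and 0 by DESeq2. The part of these cells in the peptide values was not tested. Of 7 general neuron markers (median log2 fold change 0.02) and 9 glutamatergic markers (median 0.28) none passed by edgeR or DESeq2 and 0 had an unadjusted p under 0.05, the smallest p being those of *Stmn2* (log2 fold change 0.25, adjusted p = 0.271) and *Fezf2* (0.62, adjusted p = 0.292).

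Other genes of the GABAergic cells were looked at in lists. Of 6 genes for GABA transport and breakdown, 1 was higher and 0 lower (median log2 fold change -0.02). The higher one was *Slc6a13*, which encodes the GABA transporter GAT2 and in the brain is found mainly in the meninges, at 9.31 ± 0.460 and 14.9 ± 1.28 CPM (SD, n = 3 each; log2 fold change 0.68, SE 0.12, adjusted p = 0.0275). *Slc32a1*, the vesicular GABA transporter of GABAergic neurons, was chosen after its values were seen and was at 177 ± 53.4 and 149 ± 40.5 CPM (adjusted p = 0.670). Of 16 interneuron transcription factors, 1 was higher and 0 lower (median 0.19). This was *Dlx1*, a homeobox gene of forebrain GABAergic neurons, with 33.7 ± 1.91 and 53.8 ± 7.37 CPM (log2 fold change 0.67, SE 0.12, adjusted p = 0.0316). Within the low and high striatal marker libraries the log2 ratio of *Dlx1* was 0.50 and 0.91, and its adjusted p was 0.0415 with the striatal covariate. That fit called 2 of the 16 factors, *Dlx1* and *Sp9* (log2 fold change 0.73, adjusted p = 0.0272), a zinc finger gene of GABAergic neurons. Both were high in *Lgmn*-/--IR replicate 1, the library with the high olfactory bulb markers. *Sp9* was at 26.0 CPM there, against 10.4 CPM on average in the other 2 knockout libraries. For *Dlx1* these values were 62.0 and 49.7 CPM. The part of olfactory bulb tissue in them was not tested. Without one library at a time, *Dlx1* passed only without *Lgmn*-/--IR replicate 2 (adjusted p 0.0363 to 0.128 over the 6 omissions), and *Slc6a13* did not pass (0.0547 to 0.140). With the striatal covariate edgeR gave *Slc6a13* an adjusted p of 0.0505.

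Genes that accompany the single classes did not pass by edgeR. Of 8 fast-spiking basket cell genes (median log2 fold change 0.05), *Acan*, the aggrecan of perineuronal nets, had the smallest p (log2 fold change 1.16, adjusted p = 0.0786). It had 2.54 ± 0.401 and 5.68 ± 1.86 CPM. Of 8 genes of *Sst* cells (median 0.18) the smallest p was that of *Cbln4* (0.65, adjusted p = 0.191), a synaptic organiser of these cells. Among 10 genes of *Vip*, *Cck* and *Lamp5* cells (median 0.11) it was that of *Cxcl14* (0.39, adjusted p = 0.0961), a chemokine gene of superficial interneurons. None of these 26 genes passed by edgeR's quasi-likelihood test, while 2, 1 and 1 genes of the 3 lists had an unadjusted p under 0.05 and 2, 0 and 1 passed by DESeq2. The 2 basket cell genes passing by DESeq2, *Acan* and *Cox6a2*, went opposite ways. Within the low and high striatal marker libraries the log2 ratio was 0.98 and 1.49 for *Acan* and -0.78 and -1.21 for *Cox6a2*.

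Among the other parts of the peptide system, 11 further precursor genes gave no call by edgeR (median log2 fold change 0.25), 3 had an unadjusted p under 0.05, and *Adcyap1* passed by DESeq2. *Adcyap1*, which encodes the peptide PACAP, also had the smallest p by edgeR's quasi-likelihood test, with 12.5 ± 2.48 and 21.3 ± 5.63 CPM (log2 fold change 0.77, SE 0.22, adjusted p = 0.128). Of 15 receptor genes tested for the peptides, none passed by edgeR or DESeq2 and 2 had an unadjusted p under 0.05 (median 0.17), and *Cckbr*, the brain cholecystokinin receptor, came nearest (0.64, adjusted p = 0.207). *Cckar* had too few counts to be tested. Of 11 genes for peptide processing and dense core vesicles, 1 was higher and 0 lower (median 0.27), while 4 had an unadjusted p under 0.05, 4 were higher without overlap, and 2 (*Chga* and *Pcsk1*) passed by DESeq2. It was *Pcsk1*, the prohormone convertase that cuts peptide precursors, at 32.0, 31.9 and 29.5 CPM in *Lgmn*+/+-IR and 58.0, 54.3 and 88.8 CPM in *Lgmn*-/--IR replicates 1, 2 and 3. All 3 knockout libraries were well above the wild-type range (log2 fold change 1.11, SE 0.19, adjusted p = 0.0276). Without one *Lgmn*-/--IR library at a time its adjusted p stayed under 0.05, and without one *Lgmn*+/+-IR library it did not, reaching 0.116. With the striatal covariate edgeR gave *Pcsk1* a log2 fold change of 1.02 and an adjusted p of 0.0508.

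Because several peptide genes are induced by neuronal activity, 11 activity-regulated genes were listed too. Of these 2 were higher and 0 lower (median log2 fold change 0.28). *Nptx2*, a secreted pentraxin that gathers glutamate receptors on fast-spiking interneurons, rose from 47.6 ± 0.948 to 107 ± 22.6 CPM (log2 fold change 1.17, SE 0.15, adjusted p = 0.00950). *Homer1*, a postsynaptic scaffold gene with an activity-induced short form, rose from 113 ± 3.38 to 235 ± 48.8 CPM (log2 fold change 1.06, SE 0.15, adjusted p = 0.0125). In the list 5 genes had an unadjusted p under 0.05, 5 were higher without overlap, and 5 (*Bdnf*, *Fosb*, *Homer1*, *Inhba* and *Nptx2*) passed by DESeq2. The log2 fold changes of the list ran from -0.42 to 1.17, and 0 genes were lower without overlap. The part of neuronal activity in the peptide values was not tested. Of the 6 omissions of 1 library, *Nptx2* passed in 4 and *Homer1* in 3, and the highest adjusted p were 0.0537 and 0.0739.

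**Figure D5:**
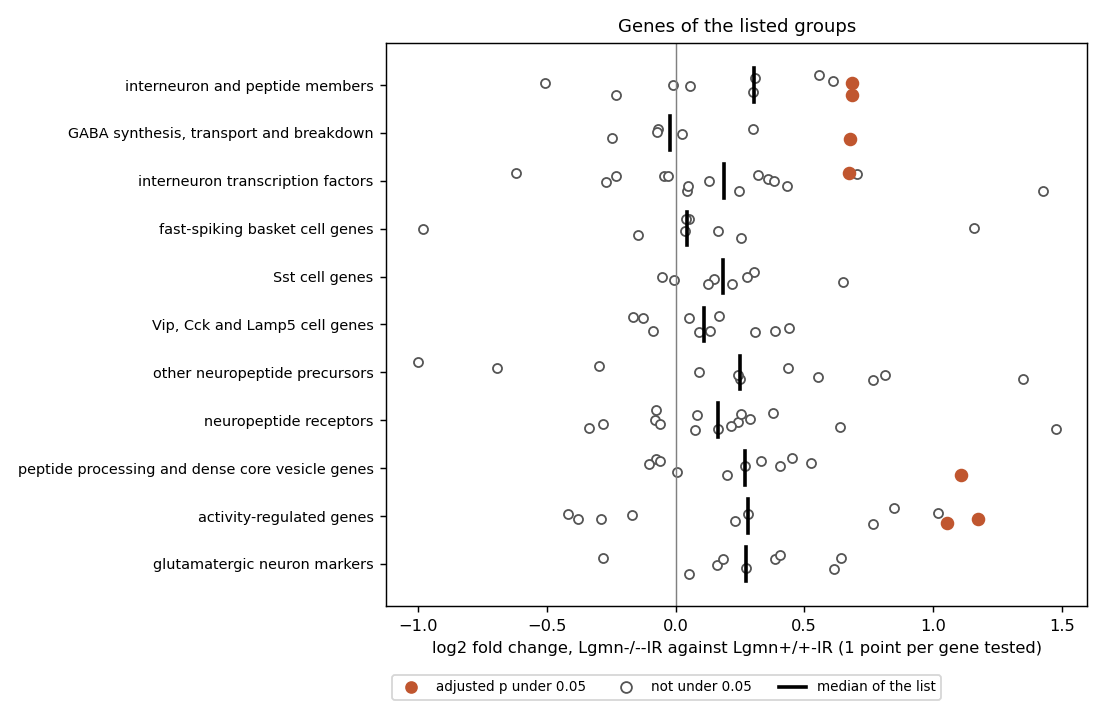
Log2 fold change of every tested gene of the members and of 10 lists, 1 point per gene, with filled points at an adjusted p under 0.05 and a bar at each list's median. Filled points are *Npy* and *Crh* among the members and *Slc6a13*, *Dlx1*, *Pcsk1*, *Nptx2* and *Homer1* in the lists, and all lie above 0.

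The genes most like *Npy* in their course over the 6 libraries, out of 15018 genes of at least 1 CPM on average, were *Prr13*, *Sfpq* and *St7*. Their log2 CPM, centred on the gene's mean, differed from that of *Npy* by a root mean square of 0.05, 0.06 and 0.06. None of them is a neuropeptide gene, and with 6 libraries many genes can share a course.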

How the data were processed

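RNA of the cortex of 3 *Lgmn*+/+-IR and 3 *Lgmn*-/--IR mice was sequenced after poly(A) selection on a DNBSEQ-T7. Per the labels and the study's methods, the authors trimmed reads with Trimmomatic 0.36, aligned them to GRCm38 with HISAT2 and quantified genes with StringTie. The program that made the count table, its annotation and its strand setting are not given in the sources used here. The deposited counts are whole numbers of reads per gene, not normalized, and the deposited FPKM values were normalized by the authors for transcript length and library size. Counts were tested with edgeR 4.0.16 in R 4.3.3 (TMM scaling, filterByExpr, quasi-likelihood F-test, genotype alone, Benjamini-Hochberg adjustment over 18345 genes). A log2 fold change is *Lgmn*-/--IR against *Lgmn*+/+-IR, its SE is its size divided by the root of F, and intervals are 95%. FPKM served to compare levels between genes. The script was tested on simulated data. Replicates differed by more than sampling noise and were counted separately. Alternatives were DESeq2 1.42.0, limma 3.58.1, other scalings and filters, a replicate block, each library left out, and, chosen after seeing the data, the mean log2 CPM of 7 striatal markers as a covariate and ratios within libraries of like marker level. Gene positions are from GENCODE.

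The members and the 22 gene lists were chosen with earlier results of these data known. Named were the 10 members, *Lgmn*, each list gene with an adjusted p under 0.05 or, with none, the list's smallest p, defining markers as levels, and the 3 genes whose centred log2 CPM lay nearest to that of the member with the smallest p. The list gene *Dlx6os1* matched more than 1 gene ID and was left out, and 1 striatal and 1 oligodendrocyte marker are not reported here and entered no list value. Genes named only for a call by DESeq2 or with the striatal covariate, such as *Sp9*, *Cdhr1* and *Fosb*, fall outside this rule and were chosen after their values were seen.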

Additional observations from a re-analysis of the deposited data

How the results depend on the processing

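*Npy*, *Crh*, *Sst* and *Vip* were higher in *Lgmn*-/--IR mice in 16 of 16 alternatives, and passed an adjusted p under 0.05 in 7, 3, 0 and 1 of them. The main test called 2 members, 611 genes, 377 DEGs and 16 list genes. Upper quartile scaling and limma-voom called 1 member each, with 608 and 594 genes. Without a filter 0 members, 404 genes and 10 list genes were called, and a minimum of 10 counts per gene and library gave 1 member, 406 genes and 228 DEGs. DESeq2 called 1423 genes, 593 DEGs and 29 list genes. On log2(FPKM + 1) there were 2 members, 551 genes and 171 DEGs, and on log2(FPKM + 0.1) 0 members and 596 genes. With the striatal covariate 0 members and 536 genes were called, beside 2 members and 611 genes in the main test. With each library left out, 0 to 1 members, 223 to 500 genes, 200 to 326 DEGs and 1 to 15 list genes were called. The cause of these changes was not tested, beyond fewer libraries in the last. Replicate numbers did not pair the samples (correlations of deviations -0.30, -0.05 and -0.05), and with the replicate block 0 members, 150 genes, 139 DEGs and 2 list genes were called. The log2 fold change changed sign for *Gad1* (-0.23 to 0.14 with a library left out, 0.19 with the covariate), *Gad2* (0.092 with the covariate), *Pvalb* (-0.10 to 0.23, and -0.14 with the covariate) and *Calb2* (-0.039 to 1.13), none of them called. *Crh* had at most 446 counts in a library, which limits its precision, and 3 libraries per group limit every interval.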
